A study of Mus musculus with 4 samples.

Results

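Among 9998 wild-type (WT) cells of day 6 embryoid bodies, 214 carried transcripts of the naive pluripotent state, 24 of 3660 cells in WT replicate 1 and 190 of 6338 in WT replicate 2. Members were chosen by measured values: a WT barcode with at least 2000 unique molecular identifiers (UMIs, each 1 captured transcript) and 1000 genes had to hold at least 1 UMI of 3 or more of the 6 genes Tcl1, Esrrb, Dppa3, Klf2, Zfp42 and Dppa5a. All 4 libraries of the series together held 17298 cells past the same depth filter. In both WT libraries the members also carried naive genes that the rule did not use and genes of primordial germ cell specification. They held low levels of targets of bone morphogenetic protein (BMP) signalling and of visceral endoderm genes. Checked against both lists, the members carried the genes of either name. In 11 and 140 of them, at least 1 of 4 chosen germ cell genes and 1 of 4 chosen naive genes were seen in the same cell.

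Embryoid bodies (EBs) are aggregates in which embryonic stem cells (ESCs) differentiate into mixed lineages. V6.5 mouse ESCs, kept in serum-free medium with 2i and LIF, were aggregated in hanging drops in serum medium without these additions for 6 days and profiled by droplet scRNA-seq of transcript 3′ ends. The WT group is the unedited line and the LSD1 KO group carries a CRISPR deletion of the promoter and first exon of Kdm1a, the gene of the histone demethylase LSD1. Each genotype had 2 biological replicates with 1 library each, from EBs that hold many cells, and the labels do not tie a library to a knockout clone. Kdm1a stood at 244 and 253 CPM (UMIs of a gene summed over cells and scaled to their total) in members of WT replicates 1 and 2. It was at 217 and 228 CPM in other WT cells, and at 0.521 and 0.839 CPM in LSD1 KO cells that meet the same rule. Its 3′ tags lie outside the deleted part.

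Naive pluripotency is the state of the pre-implantation epiblast and of ESCs in 2i and LIF. Exit from it passes through a formative epiblast state, marked by Otx2, Fgf5, Pou3f1 and Dnmt3b, before lineages are set up. Primordial germ cells, the founders of eggs and sperm, are specified from epiblast by BMP signals through Prdm1, Prdm14 and Tfap2c. They regain several naive genes, among them Dppa3, Esrrb and Zfp42, so markers of the 2 states overlap. Nanos3 and Dnd1, which encode RNA-binding proteins, mark germ cells and are needed for their survival.

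Library totals were 72285943 to 75406512 UMIs, raw counts without a cell filter. Members had a median of 14329.5 UMIs in WT replicate 1 and 11048.5 in WT replicate 2, while other WT cells had 14431 and 9573.5. At most 12 cell barcodes were shared by any pair of libraries and 0 of them belonged to cells that pass the rule. Of the members, 4 in replicate 1 and 12 in replicate 2 also held 4 or more of the 6 markers of another lineage. These were Krt7 epithelium in 3 and 6 cells, cardiac and lateral mesoderm in 1 and 6, and Foxc2 mesenchyme in 0 and 1, and a cell could count for more than 1 lineage. None of the 214 carried that many markers of visceral endoderm, anterior neural cells, endothelium or primitive blood.

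Members made up 0.656% of WT replicate 1 (exact 95% binomial interval 0.421 to 0.974%) and 2.998% of WT replicate 2 (2.59 to 3.45%). The replicates therefore differed beyond counting error, which is the only error these intervals cover. The same rule was met by 220 LSD1 KO cells in replicate 1 (4.54%, interval 3.97 to 5.16%) and by 351 in replicate 2 (14.3%, 13.0 to 15.8%). The WT mean was 1.83% ± 1.66 (SD, n = 2) and the LSD1 KO mean 9.43% ± 6.92 (SD, n = 2), and the groups did not overlap. An exact two-sided permutation test gave p = 0.333, the smallest value that 2 libraries against 2 allow. Passing LSD1 KO cells were deeper than WT members, with medians of 17142 and 31875 UMIs, while other LSD1 KO cells had 12707.5 and 23658. Passing cells were thus deeper than other cells in both LSD1 KO libraries. The gap was smaller in WT replicate 2 (11048.5 against 9573.5) and absent in WT replicate 1 (14329.5 against 14431). With every cell thinned to 2000 UMIs, the rule was passed by 0.355% and 1.88% of the WT libraries and by 0.722% and 2.00% of the LSD1 KO ones, and the genotypes overlapped (p = 0.667 by the exact permutation test).

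WT cells split into a large class with no or 1 marker and a small one with many. In WT replicate 1, 3226 cells held 0 markers, 386 held 1, 24 held 2, 4 held 3, 7 held 4, 7 held 5 and 6 held 6. In WT replicate 2 these numbers were 5515, 599, 34, 19, 52, 80 and 39. Cells with 3 markers were thus the rarest of those with at most 4 in each WT library. In LSD1 KO replicate 1 the numbers went down at every step, 2565, 1576, 489, 138, 53, 24 and 5, and so they did in replicate 2 with 825, 769, 505, 213, 86, 33 and 19.

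**Figure D1:**
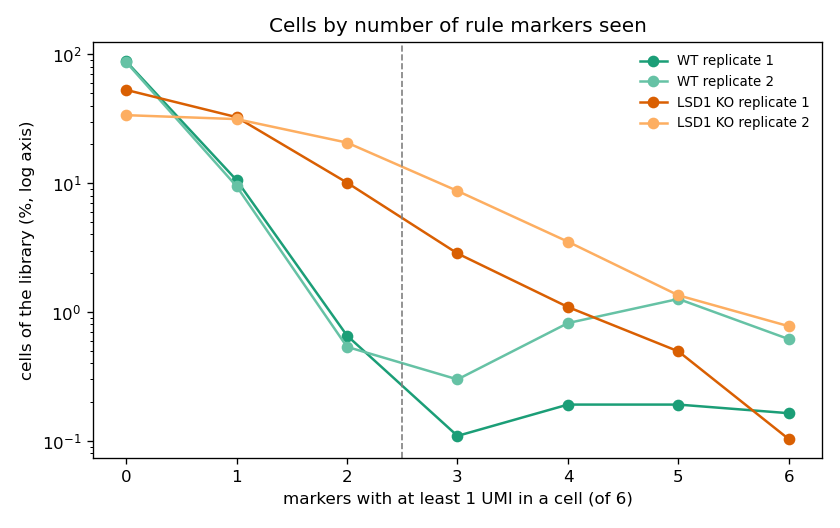
Percent of the cells of each library (y axis, logarithmic) by the number of the 6 rule markers seen with at least 1 UMI (x axis); the dashed line marks the limit of 3. Both WT lines dip at 3 markers and climb again, while both LSD1 KO lines fall from 0 to 6.

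At the limit itself, the 24 and 34 WT cells with 2 markers had median depths of 27662.5 and 14447 UMIs and held Dppa5a at 212 and 215 CPM. The 4 and 19 cells with 3 markers were shallower, with medians of 4101 and 8189 UMIs, and held Dppa5a at 317 and 3579 CPM. The level of 317 CPM rests mostly on 1 of the 4 cells, which held 62004 UMIs.

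The 6 rule genes differed in how far members stood above other WT cells, which is what selected them and carries no test. Dppa5a, which encodes a KH-domain RNA-binding protein of pluripotent and germ cells, was at 2697 CPM in members of WT replicate 1 and at 3804 in those of replicate 2. In other WT cells it was at 4.74 and 5.28 CPM. It was seen in 95.8% and 100% of members, against 1.45% and 2.81% of cardiac cells, which should lack it, at median depths of 17769 and 10683 UMIs. Here and below, the 1 and 6 cardiac cells that pass the rule were left out. The shares of rule genes in cardiac cells are therefore partly set by the rule. In barcodes with at most 100 UMIs, which mostly hold free RNA, Dppa5a was at 41.7 and 158 CPM. Dppa3, also called Stella, protects maternal methylation in the zygote and marks germ cells. It stood at 418 and 646 CPM in members, 0.0806 and 0.336 CPM in other WT cells, and 0 of 552 and 0 of 498 cardiac cells held a UMI of it, which allows a share of cells with a UMI of up to 0.543% and 0.602%.

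Zfp42 (Rex1), a zinc-finger gene silenced on exit from the naive state, was at 353 and 330 CPM in members and 0.984 and 1.05 CPM in others. Klf2, a Krüppel-like factor of the naive network, was at 250 and 362 CPM against 6.19 and 7.43 CPM. Esrrb, an orphan nuclear receptor of that network, was at 111 and 84.2 CPM against 0.677 and 0.412 CPM. Tcl1, a co-activator of the kinase Akt, had the lowest level in members, 54.3 and 65.8 CPM, and 0 UMIs in 3636 and 6148 other WT cells, which allows up to 0.0825% and 0.0488% of cells with a UMI. The rule itself moved cells with Tcl1 out of these. Klf2 was the least restricted of the 6, with a UMI in 6.82% and 5.53% of other WT cells, and the share in cardiac cells was 5.80% and 5.82%. The levels of Esrrb and Tcl1 are the least precise, since they rest on 41 and 20 UMIs in the members of WT replicate 1.

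**Figure D2:**
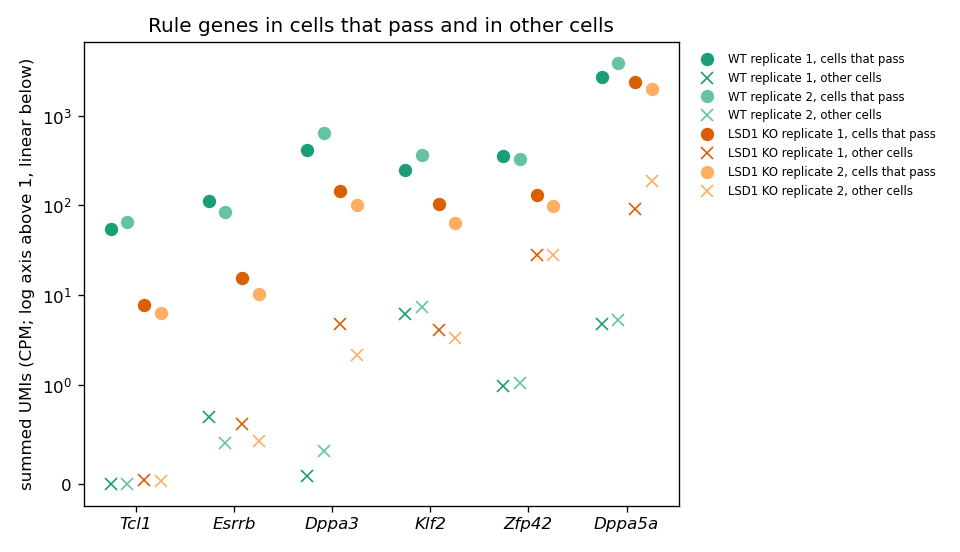
Level of each rule gene (x axis) in CPM of summed UMIs (y axis, logarithmic above 1 and linear below) in cells that pass the rule (circles) and in other cells (crosses), with 1 symbol per library. WT members lie above passing LSD1 KO cells for all 6 genes, and crosses of Dppa3, Zfp42 and Dppa5a are higher in LSD1 KO than in WT.

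The genes lie on 4 chromosomes of NCBIM37, the assembly that mm9 names: Tcl1 at chr12:106454967-106460947 (minus strand), Esrrb at chr12:87702067-87862578 (plus), Dppa3 at chr6:122576428-122580290 (plus), Klf2 at chr8:74842932-74845555 (plus), Zfp42 at chr8:44380422-44392363 (minus) and Dppa5a at chr9:78214859-78215984 (minus). The 250 bases before the annotated start are shown for Zfp42, the rule gene with the most motifs found. They were read from NCBIM37 on the strand of the gene, and capitals mark motif letters on either strand.
Zfp42, chr8:44392364-44392613: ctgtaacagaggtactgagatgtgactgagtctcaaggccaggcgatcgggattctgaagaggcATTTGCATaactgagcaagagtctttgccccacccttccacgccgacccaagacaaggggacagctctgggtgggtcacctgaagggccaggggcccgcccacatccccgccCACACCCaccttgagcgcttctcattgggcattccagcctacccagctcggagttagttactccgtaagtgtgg
The first capitals in the Zfp42 stretch are the octamer ATGCAAAT on the opposite strand, 186 bases before the start, the letters that Pou5f1 and its relatives bind. The second run, 74 bases before the start, is the GT box GGGTGTG of Krüppel-like factors, also on the opposite strand. Esrrb itself held a GT box 221 bases before its start. The octamer was found in 1.62% and the GT box in 7.15% of the same windows of 22238 coding genes. A match of letters is a description and shows no binding.

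Beyond the rule, 11755 genes were measured (at least 5 CPM in members or other WT cells of a library). With 5 CPM added to both levels, 542 of them (4.61%) were 2-fold or more higher in members in both WT libraries and 557 (4.74%) 2-fold or more lower. The median log2 ratio over all measured genes was 0.02. Genes that are correlated with the 6 markers had to differ, so these counts describe the members and carry no test.

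The gene furthest above other WT cells was Tdh. Tdh, the threonine dehydrogenase abundant in mouse ESCs, was at 223 and 226 CPM in members of WT replicates 1 and 2 and at 0.500 and 0.442 CPM in other cells, log2 ratios of 5.37 and 5.41. Trap1a, an X-linked tumour antigen gene, was at 217 and 229 CPM against 1.60 and 2.03. Spp1, the secreted phosphoprotein osteopontin, was at 418 and 266 CPM against 3.35 and 3.31. In all 3 both member levels were far above both levels of other cells.

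Tdrd12, a tudor-domain gene of the germline small RNA pathway, was at 166 and 196 CPM against 0.710 and 1.10 in other WT cells. Ooep, of the maternal complex of oocytes, was at 70.6 and 138 CPM against 0.129 and 0.122. Utf1, a chromatin-bound factor of undifferentiated ESCs, was at 318 and 351 CPM against 7.03 and 11.4. Fut9, which makes the surface antigen SSEA-1, was at 206 and 166 CPM against 2.14 and 3.39. These 4 genes again kept the members of both libraries above other WT cells by log2 ratios of 3.88 to 5.04. Gdf3, a ligand of the TGF-beta family, Rims1, Lncenc1, Dppa4, 4930519F16Rik, Nr5a2, Nanog, Triml2, Mt2, Glis3, Zfp987, Nexmif and Fabp3 completed the 20 largest, with log2 ratios of 3.70 to 4.94 over the pair of libraries.

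Ttr and Spink1 stood furthest below other WT cells by the weaker of the 2 log2 ratios, −3.78 and −3.77. Ttr, the thyroid hormone carrier of visceral endoderm, had 0 UMIs in members of replicate 1 and 1.71 CPM in those of replicate 2, against 238 and 87.2 CPM in other WT cells. Spink1, a protease inhibitor, was at 19.0 and 72.7 CPM against 1621 and 1053. Cdkn1c, the cell cycle inhibitor p57, was at 13.6 and 35.9 CPM against 294 and 202. Id1, an inhibitor of differentiation induced by BMP, was at 29.9 and 47.0 CPM against 254 and 255. Each was below other cells in both libraries. Cited1, Ptprd, Col4a1, Car4, Igfbp5 and Thsd7a were the remaining ones of the 10.

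Of 18 naive genes outside the rule, 14 were 2-fold or more higher in members in both libraries and 0 lower, with a median log2 ratio of 2.36. Nr5a2, a nuclear receptor, was at 97.8 and 107 CPM in members against 1.45 and 0.626. Nanog, a homeodomain factor, was at 125 and 157 CPM against 2.35 and 5.55. Tfcp2l1, a factor downstream of LIF, was at 65.2 and 70.5 CPM against 14.2 and 6.41. The 4 exceptions were Klf4 (10.9 and 42.3 CPM against 9.59 and 5.77), Tbx3, Mras and Tdrkh. Tbx3, at 24.4 and 13.7 CPM in members, was at 57.3 and 30.0 CPM in other cells.

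Of 10 general pluripotency genes, 7 were 2-fold or more higher, with a median log2 ratio of 3.07. Pou5f1 (Oct4), the factor shared by naive, formative and germ cells, was at 111 and 114 CPM in members against 3.82 and 7.98. Sox2, its partner, was at 266 and 273 CPM against 17.2 and 26.9. Sall4, at 120 and 130 CPM in members, was at 119 and 127 CPM in other WT cells, which is no difference beyond that between the libraries. Lin28a, which blocks let-7 processing, was at 65.2 and 72.3 CPM in members and at 149 and 146 CPM in other cells.

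Of 12 genes of primordial germ cell specification, 11 were 2-fold or more higher and 0 lower, with a median log2 ratio of 2.12. Tfap2c, a factor of germ cells that trophoblast uses as well, was at 67.9 and 71.0 CPM in members against 1.81 and 1.51. Prdm1 (Blimp1), which represses the somatic programme in germ cells, was at 46.2 and 39.8 CPM against 19.3 and 15.4. Nanos3 was at 16.3 and 17.96 CPM against 0.355 and 0.595, and Dnd1 at 32.6 and 25.2 CPM against 0.435 and 0.259. Their counts are small in WT replicate 1, 6 UMIs of Nanos3 and 12 of Dnd1. Prdm14 was at 13.6 and 14.5 CPM against 1.31 and 0.977. Ifitm1, an interferon-induced gene that marks early germ cells, was the most abundant at 915 and 1416 CPM against 276 and 236. The 12 genes together summed to 1687 and 2208 CPM in members against 454 and 382. Summed levels of this list in WT members, here and below, therefore rest mostly on Ifitm1. Kit, the receptor that germ cells need to migrate, was the exception, at 35.3 and 54.7 CPM against 41.5 and 27.0.

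Genes of germ cells past specification were few. Of 13 listed, 5 were measured and 3 of these were 2-fold or more higher, Ddx4, Sycp3 and Hormad1, with member levels of 8.98 to 27.4 CPM. Taf7l and Tex101 had 0 UMIs in all members. The 9 genes of the 2-cell-like state, Zscan4 genes included, had 0 UMIs in members. T, the streak gene that precedes germ cell specification in the embryo, was at 0 and 2.14 CPM in members against 22.6 and 34.6. Of 5 measured primitive streak genes, 2 (T and Fgf8) were 2-fold or more lower.

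The formative list was not higher in members: 0 of 11 measured genes were 2-fold or more higher and 2 lower, Dnmt3b and Sall2, with a median log2 ratio of −0.90. Dnmt3b, a de novo DNA methyltransferase, was at 19.0 and 46.6 CPM in members against 117 and 139. Otx2 was at 27.2 and 60.3 CPM against 62.3 and 123. Fgf5 was at 13.6 and 7.70 CPM against 18.6 and 29.6.

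**Figure D3:**
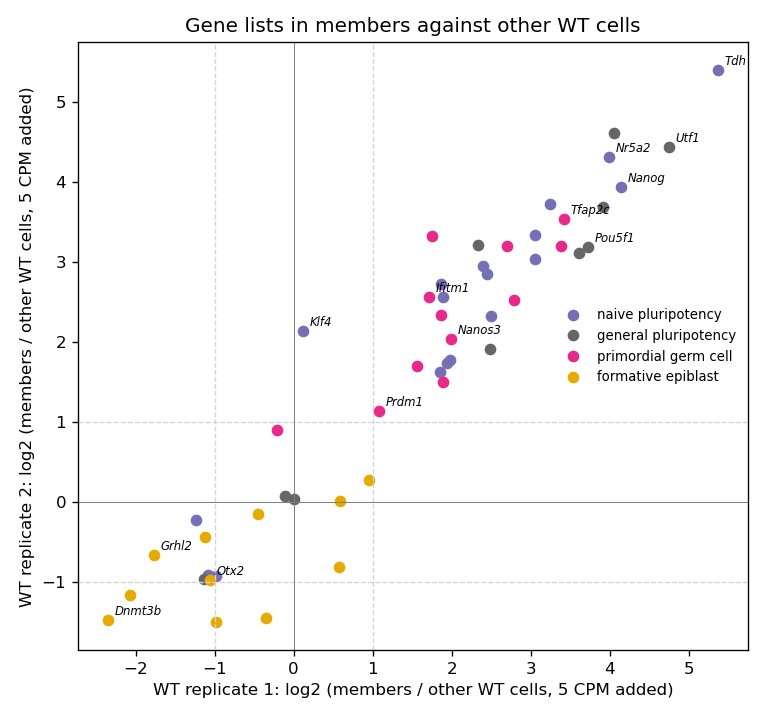
Log2 ratio of members to other WT cells (5 CPM added) in WT replicate 1 (x axis) and WT replicate 2 (y axis), 1 point per measured gene of 4 lists, with dashed lines at 2-fold. Naive, general pluripotency and germ cell genes fill the upper right, up to Tdh at 5.37 and 5.41, and no formative gene passes 2-fold higher in both.

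Of 8 BMP target genes, 6 were 2-fold or more lower in members in both libraries, with a median log2 ratio of −2.18. Id3 was at 67.9 and 123 CPM against 392 and 414. Id2 was at 19.0 and 24.4 CPM against 134 and 112. Of 6 genes of LIF signalling, 1 was 2-fold or more higher, Il6st, the shared receptor subunit, at 57.0 and 31.6 CPM against 22.7 and 12.6. Socs3, its feedback target, was at 8.15 and 0.855 CPM.

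Among 8 genes of DNA methylation, 3 were 2-fold or more higher and 2 lower. Dnmt3l, the cofactor of de novo methylation, was at 43.5 and 74.8 CPM against 0.339 and 0.153. Tet1 and Tet2, which oxidise methylcytosine, were at 340 and 277 and at 67.9 and 50.4 CPM against 55.4 and 53.4 and against 13.5 and 11.2. Tet3 was at 5.43 and 17.5 CPM against 76.3 and 60.2. Dnmt1, which maintains methylation, was at 111 and 130 CPM against 97.4 and 97.9. None of the 6 genes of the LSD1 and CoREST complex passed 2-fold.

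Cell cycle lists differed little. Of 16 S phase genes 1 was 2-fold or more higher, with a median log2 ratio of 0.40, and of 16 genes of G2 and M phase 0 were, with a median of 0.38. Of 8 measured immediate early and stress genes, 3 were 2-fold or more lower.

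Markers of the other cell types of the EBs were low in members. Visceral endoderm markers summed to 0 and 2.99 CPM in members against 314 and 109 CPM in other WT cells, and primitive blood markers to 0 and 0.855 CPM against 39.6 and 12.9. Cardiac and lateral mesoderm markers summed to 54.3 and 88.9 CPM against 474 and 334. Foxc2 mesenchyme, anterior neural and endothelial markers had 3 of 6, 3 of 5 and 2 of 4 measured genes 2-fold or more lower and 0 higher. Of 4 trophoblast genes 1 was higher, Tfap2c, which is on that list too, and 1 lower. The exception was Krt7 epithelium, at 2097 CPM in members of WT replicate 1 and 242 in those of replicate 2, against 1967 and 1464 in other cells. In replicate 1, 3 of the 24 members carried 4 or more of these markers. Without the members of another lineage, 643 genes were 2-fold or more higher and 776 lower.

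Genes of both lists were seen in the same cells, each by at least 1 UMI. Of 4 germ cell genes (Prdm1, Tfap2c, Nanos3, Dnd1) and 4 naive genes outside the rule (Tfcp2l1, Nr5a2, Tdh, Fgf4), at least 1 of each was seen in 11 of 24 members of WT replicate 1 (45.8%) and in 140 of 190 of replicate 2 (73.7%). In other WT cells this share was 6.57% and 1.72%. Germ cell genes without any of the 4 naive genes were seen in 0 and 2 members. In LSD1 KO cells that pass the rule, both were seen in 15.0% and 25.1%. Naive genes without germ cell genes were seen in 12 and 42 WT members. At 2000 UMIs per cell, 16.7% and 21.6% of members and 0.220% and 0.130% of other cells held both. Germ cell genes without naive genes were then seen in 3 and 21 members, and naive genes without germ cell genes in 10 and 68. Any of the 4 germ cell genes was seen in 29.2% and 32.6% of members at that depth, and any of the 4 naive genes in 58.3% and 57.4%. Whether both were seen together more often than independent detection would give was not tested.

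Naive genes outside the rule were seen in members with and without a germ cell gene. In WT replicate 2, Tfcp2l1 was seen in 48 of 91 members with Tfap2c (52.7%) and in 50 of 99 without (50.5%), and Nanog in 73 (80.2%) and 76 (76.8%). With Nanos3, Tfcp2l1 was seen in 17 of 34 members, and without it in 81 of 156. In WT replicate 1, Tfcp2l1 was seen in 8 of 10 members with Tfap2c and in 4 of 14 without. For these pairs the shares with and without a germ cell gene lay within a few percent of each other in replicate 2. They lay further apart in the small replicate 1. Some other pairs differed more in replicate 2, such as Nanog with and without Dnd1 (84.1% and 76.7%). Sox2 was seen in 96.7% of members with Tfap2c and 86.9% without. Members with a germ cell gene were deeper, with medians for Tfap2c of 15148 against 7595 UMIs in replicate 1 and 11430 against 9532 in replicate 2.

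Per cell, the 18 naive genes ran from 179 to 5142 CPM in replicate 1 (median 1268) and from 0 to 4574 in replicate 2 (median 1193). The 12 germ cell genes ran from 0 to 4514 CPM (median 2050) and from 471 to 7603 (median 2329). Most of this list was Ifitm1 when summed over members. Spearman's rho of the list levels across members was 0.18 (n = 24) and 0.14 (n = 190), a description over cells that share a library and its depth.

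**Figure D4:**
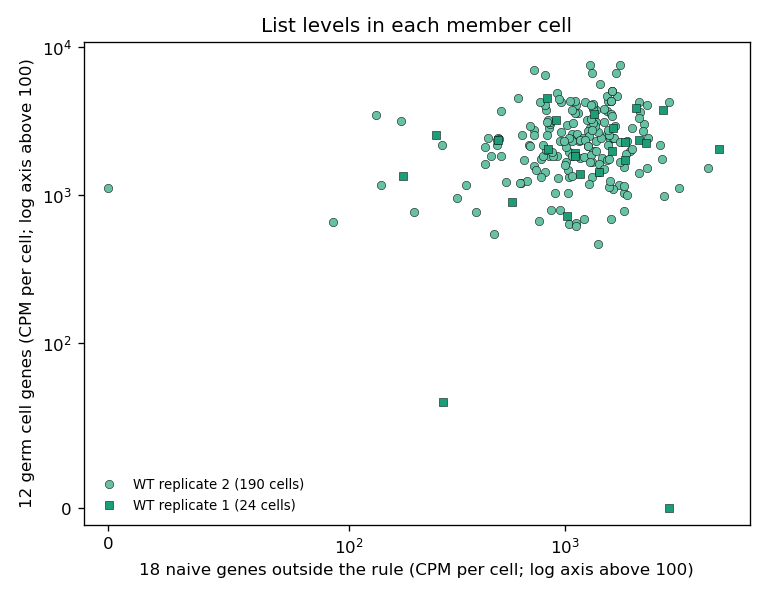
Each point is a member, with the summed level of 18 naive genes outside the rule (x axis) and of 12 germ cell genes (y axis) in CPM of that cell, both axes logarithmic above 100; squares are WT replicate 1 and circles WT replicate 2. Most points form a single cloud near the medians of 1193 to 1268 and 2050 to 2329 CPM, with 1 cell at 0 on each axis.

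Summed over cells, both lists were lower in cells with 3 markers than in cells with 4, 5 or 6, without a rise at each step. In WT replicate 1 the sums for 3 markers rest mostly on 1 cell of 62004 UMIs. It held the naive list at 274 CPM and the germ cell list at 64.5 CPM. The remaining cells with 3 markers there held 821 to 3017 CPM and 0 to 4514 CPM. In WT replicate 1, cells with 3, 4, 5 and 6 markers held the naive list at 496, 1086, 1047 and 1406 CPM and the germ cell list at 303, 1526, 2188 and 2167 CPM. In replicate 2 the naive list was at 948, 1012, 1177 and 1195 CPM and the germ cell list at 1678, 2086, 2431 and 2130 CPM. The formative list went down from 385 to 131 CPM in replicate 1 and from 396 to 253 in replicate 2, from 3 to 6 markers. Depth rose with the number of markers, from medians of 4101 to 19180 and of 8189 to 12804.

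WT members were then compared with LSD1 KO cells that pass the same rule, UMIs summed per library, to see whether the cells with these markers are alike in the 2 genotypes. The sums held 368187 and 2339024 UMIs for WT and 3837932 and 11913270 for LSD1 KO. Of 11625 genes tested outside the rule, 1611 (13.9%) were higher and 1811 (15.6%) lower in WT at an adjusted p under 0.05 in edgeR's quasi-likelihood test. Leaving out LSD1 KO replicate 1 left 516 higher and 686 lower, and leaving out WT replicate 2 left 557 and 821. Without LSD1 KO replicate 2 edgeR called 0 genes, with 2114 at an unadjusted p under 0.05. DESeq2 called 572 higher and 731 lower. With WT replicate 2 left out, 9 of 17 naive genes and 6 of 11 germ cell genes were called higher and 9 of 12 formative genes lower, and DESeq2 called 13 of 17, 9 of 12 and 9 of 11. A p-value here measures the spread between 2 libraries of a genotype. The rule did not make the cells alike. Of passing LSD1 KO cells, 62.7% and 60.7% held just 3 markers, against 16.7% and 10.0% of WT members. All 6 rule genes were themselves called higher in WT members, but the rule used their values, so these calls carry no test. Calls of genes that are correlated with the markers are therefore not independent of the rule. Values below are CPM with TMM scaling, and list counts are to be read against the 13.9% and 15.6%.

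Of 17 naive genes tested, 15 were higher in WT members and 1, Tdrkh, lower, with a median log2 fold change of 2.00, against 0.00 over all genes. Nr5a2 was at 93.7 and 109 CPM in WT and at 10.8 and 6.23 CPM in LSD1 KO (log2 fold change 3.78 ± 0.22 SE, adjusted p = 2.53e-07). Tfcp2l1 was at 62.5 and 71.6 CPM against 5.65 and 4.86 (3.76 ± 0.22, adjusted p = 2.49e-07). Nanog was at 120 and 159 CPM against 87.2 and 73.2 (0.90 ± 0.15, adjusted p = 0.000731). Neither genotype overlapped the other for these 3 genes, which also held for genes that were not called, among them Pou5f1, Sall4 and Hdac1.

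Of 12 germ cell genes, 11 were higher in WT members and 0 lower, with a median of 2.32. Tfap2c was at 65.1 and 72.1 CPM in WT and at 4.85 and 4.95 CPM in LSD1 KO (3.83 ± 0.22, adjusted p = 2.35e-07). Prdm1 was at 44.3 and 40.4 CPM against 3.77 and 4.35 (3.30 ± 0.28, adjusted p = 4.67e-06). Prdm14 was at 13.0 and 14.8 CPM against 0.269 and 0.256 (adjusted p = 7.09e-06). Ifitm3 was not called (232 and 253 CPM against 320 and 311, adjusted p = 0.0513). The later germ cell genes went the other way, 8 of 10 tested lower in WT and 0 higher. Sycp3, of the meiotic chromosome axis, was at 10.4 and 11.7 CPM in WT and at 41.7 and 48.2 CPM in LSD1 KO (−1.98 ± 0.24, adjusted p = 6.66e-05).

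Of 11 formative genes, 10 were lower in WT members and 0 higher, with a median of −2.30. Pou3f1 was at 23.4 and 8.25 CPM in WT and at 133 and 162 CPM in LSD1 KO (−3.80 ± 0.27, adjusted p = 1.42e-06). Dnmt3b was at 18.2 and 47.3 CPM against 243 and 307 (−2.75 ± 0.23, adjusted p = 4.12e-06). Sox3 was at 0 and 0.434 CPM against 27.2 and 28.3 (adjusted p = 8.13e-06). Otx2 was not called (26.0 and 61.2 CPM against 63.8 and 82.7, adjusted p = 0.119).

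General pluripotency genes were divided, with 3 of 10 higher in WT members and 4 lower. Sox2 was at 255 and 277 CPM in WT and at 72.7 and 81.4 CPM in LSD1 KO (1.79 ± 0.13, adjusted p = 1.87e-06). Tdgf1 (Cripto), a Nodal co-receptor, was at 62.5 and 71.6 CPM against 476 and 424 (−2.70 ± 0.16, adjusted p = 2.49e-07). Pou5f1 was not called (107 and 116 CPM against 151 and 126, adjusted p = 0.166). Dppa4, called higher in WT at an adjusted p of 0.0481, overlapped between genotypes.

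**Figure D5:**
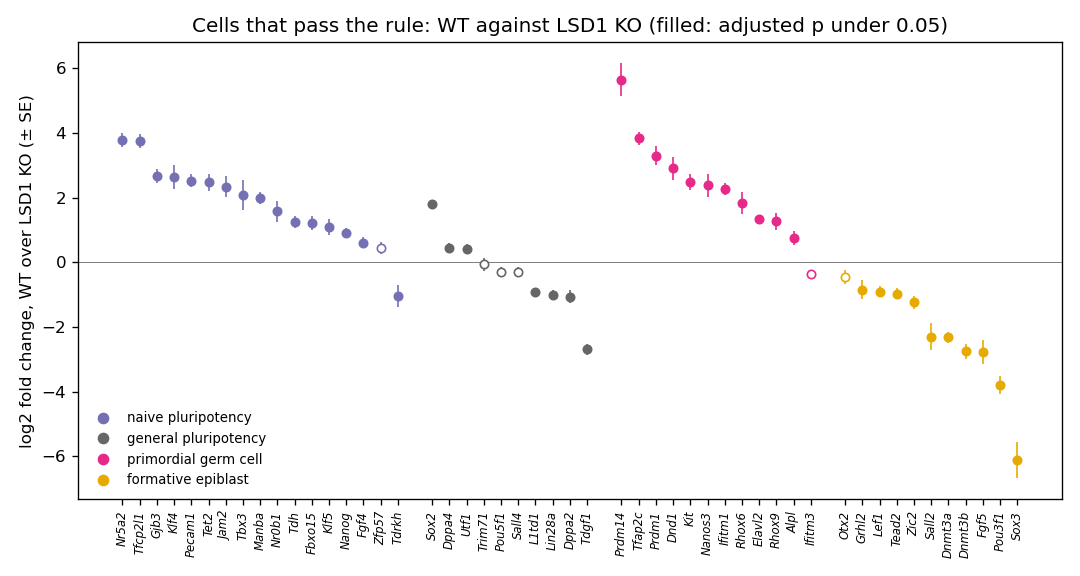
Log2 fold change of WT over LSD1 KO cells that pass the rule (y axis, bars are SE from edgeR) for the tested genes of 4 lists (x axis), with filled points at an adjusted p under 0.05. Above 0 and filled are 15 naive and 11 germ cell points, and the formative points all lie below 0.

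Other lists held called genes as well. The receptor Lifr (78.1 and 63.8 CPM in WT against 17.5 and 18.1) and Il6st were higher in WT, the 2 called of 6 LIF genes. Of 8 DNA methylation genes, Tet1 and Tet2 were higher, and Dnmt3a, Dnmt3b and Uhrf1 lower. Of 16 S phase genes 6 were lower and 1 higher, of 16 genes of G2 and M phase 1 and 3, of 7 BMP targets 1 and 2, and of 4 streak genes 3 and 0. Markers of other lineages moved with genotype too: all 4 tested cardiac genes (Gata6, Hand1, Hand2, Tnnc1), both tested anterior neural genes and 2 of 5 Krt7 epithelium genes were higher in WT members, while 2 of 2 Foxc2 mesenchyme genes and 1 of 2 endothelial genes were lower. The summed levels before TMM scaling were 54.3 and 88.9 CPM (cardiac) and 2097 and 242 CPM (Krt7 epithelium) in WT, against 9.64 and 5.79 and 299 and 220 CPM in LSD1 KO. With cells of another lineage left out of both genotypes, 1633 genes were higher and 1829 lower, among them 15 of 17 naive and 11 of 12 germ cell genes higher and 10 of 11 formative genes lower. Of the lineage markers, 2 of 3 cardiac, 2 of 2 anterior neural and 0 of 5 Krt7 epithelium genes were then higher, and 1 of 2 Foxc2 mesenchyme and 1 of 2 endothelial genes lower.

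Among genes at 50 CPM or more in both libraries of the higher genotype and without overlap, the targeted gene Kdm1a led with 234 and 257 CPM in WT members and 0.539 and 0.853 CPM in LSD1 KO (8.28 ± 0.20, adjusted p = 4.41e-11). Cobl, Cldn7, Glis3, Spp1 and 4930519F16Rik were among the 10 of these genes highest in WT, as were Tfap2c, Nr5a2 and Tfcp2l1. Spp1 was at 401 and 271 CPM against 57.4 and 47.1. On the other side Pim2, a survival kinase, was at 13.0 and 5.21 CPM in WT against 199 and 218 (−5.02 ± 0.25, adjusted p = 1.62e-07). Mt3, a metallothionein, was at 2.60 and 4.34 CPM against 101 and 116. Pla2g1b, Gap43, Gm32885, Usp26, Plac8 and Lrp2 were among the 10 of these genes lowest in WT beside Pou3f1, each without overlap.

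Within LSD1 KO EBs, 5 of 18 naive and 3 of 12 germ cell genes were 2-fold or more higher in passing than in other cells of both libraries, where 97 of 11755 measured genes (0.825%) were. The rule selected these cells too, so the counts carry no test. The rule admits cells with different numbers of markers, and LSD1 KO cells mostly had 3, so cells with all 6 markers were set side by side (6 and 39 WT cells, 5 and 19 LSD1 KO cells) with no test. The naive list was then at 1406 and 1195 CPM in WT and at 1289 and 1011 CPM in LSD1 KO. The germ cell list was at 2167 and 2130 CPM against 932 and 1457, and Tfap2c at 147 and 89.5 CPM against 11.5 and 22.2. Prdm1, Dnd1 and Kit were also apart, while Nanos3 overlapped, at 32.7 and 20.7 CPM against 23.0 and 12.7. These levels rest on few UMIs, above all in the 5 cells of LSD1 KO replicate 1. There Tfap2c, Prdm1 and Kit were each at 11.5 CPM and Dnd1 at 0. Of the naive genes, Nanog overlapped (229 and 169 CPM against 173 and 122). Tfcp2l1 was apart, at 73.6 and 87.8 CPM against 57.5 and 26.9. The formative list was at 131 and 253 CPM against 403 and 521. The genotypes thus stayed apart in the germ cell and formative lists and in Tfap2c, Prdm1, Dnd1, Kit and the naive gene Tfcp2l1. They overlapped in the naive list, in Nanog and in the germ cell gene Nanos3. With 4 or more markers asked for, 1136 of 10477 genes (10.8%) were higher in WT and 1408 (13.4%) lower by edgeR. Of the lists, 11 of 17 naive genes, 10 of 12 germ cell genes and 0 of 11 formative genes were called higher in WT, and 0, 1 and 11 lower.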

How the data were processed

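Day 6 EBs of WT and LSD1 KO ESCs were profiled with 10x 3′ scRNA-seq. Alignment and counting by the authors used Cell Ranger 7.1.0, and the submitters' processing notes name mm9. What they deposited are UMI counts for each gene in every barcode, neither normalized, filtered nor pooled. The members and the 22 gene lists were chosen with earlier results of these data known. Here UMIs were summed over the cells of a group in each library, scaled to CPM, and compared as log2 ratios with 5 CPM added. Between genotypes, sums were tested with edgeR 4.0.16 (R 4.3.3, filterByExpr, TMM, quasi-likelihood, Benjamini-Hochberg), and the step was tested on simulated data. DESeq2 1.42.0 was an alternative. No pairing of libraries by replicate number was seen (correlation of same-numbered deviations −0.02). With 2 libraries per genotype this is a single value, which cannot exclude pairing. Matrices held 0 mitochondrial genes and no doublets were removed. Cells with markers of another lineage were counted instead.

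Named genes were the 6 of the rule, the 20 highest and 10 lowest in members among those at 50 CPM or more in the higher group, 10 per direction among genes called between genotypes without overlap, at the same minimum, genes of the naive, general, germ cell and formative lists, up to 4 of each other list, and Kdm1a. Genes beyond these were named after their values were seen. The 2 libraries of a genotype are biological replicates, as the study calls them. Gene positions and upstream bases come from GENCODE M1 and NCBIM37. Alternatives changed the number of markers, depth, scaling, filter, test, libraries left out and the replicate block. A few items that the named-gene rule or the motif search covers are not reported here.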

Additional observations from a re-analysis of the deposited data

Results flagged for a closer look

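For 82 measured genes named for members, the ratio of passing to other cells was compared between genotypes. In 9 of them every WT library moved one way and every LSD1 KO library the opposite way, a difference that was not tested. The formative genes Otx2, Dnmt3a, Dnmt3b, Grhl2 and Lef1 were lower in passing cells than in other cells of WT EBs and higher in passing cells of LSD1 KO EBs. The mean log2 ratios were −1.02 in WT and 0.41 in LSD1 KO for Otx2, −0.30 in WT and 0.63 in LSD1 KO for Dnmt3a, −1.91 in WT and 0.20 in LSD1 KO for Dnmt3b, −1.22 in WT and 1.23 in LSD1 KO for Grhl2, and −0.78 in WT and 0.15 in LSD1 KO for Lef1. Zic2, of the same list, went the opposite way, with 0.30 in WT and −0.29 in LSD1 KO. Klf4, a naive factor, was at 1.13 in WT and −0.09 in LSD1 KO, where the 2 WT libraries gave 0.12 and 2.14. Among the genes lowest in members, Cdkn1c had −3.17 in WT and 0.85 in LSD1 KO, and Car4, a carbonic anhydrase, −2.39 in WT and 0.24 in LSD1 KO. Of all cells, 1718 and 1919 in WT and 179 and 116 in LSD1 KO held 4 or more markers of another lineage, and the part of this difference in the ratios was not tested.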

How the results depend on the processing

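The share of WT cells that pass was 1.31% and 3.53% with 2 markers asked for and 0.355% and 1.88% at 2000 UMIs per cell. It stayed within its interval under the other alternatives, each of the 6 markers left out in turn included. With 1 CPM added in place of 5, 885 genes were 2-fold or more higher in members and 935 lower. Between genotypes, edgeR called 0 to 1798 genes higher and 0 to 2027 lower in WT as each library was left out in turn, where a genotype's lone library is assumed to vary like the other genotype's. DESeq2 called 572 and 731. The replicate block gave 1418 and 1640, with 2937 of 3422 calls kept. With sums thinned to the smallest library, chosen after seeing the data, 6017 genes were tested and 494 and 530 called. Scaling by library totals alone moved the median log2 fold change from 0.00 to 0.03. Of the genes named, Dppa4 reversed, with −0.043 without WT replicate 2 and up to 0.59 without WT replicate 1, and the cause was not tested. The test on members found at 2000 UMIs was not run because 13 cells were left in WT replicate 1, under a minimum of 20. Depth limits rare genes most in WT replicate 1, whose members held 368187 UMIs.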
